A study of Mus musculus with 42 samples.

Results

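The 37 genes described here are type I interferon-stimulated genes, chosen by name from the deposited gene table, which lists 47729 genes. All 37 were in the table, and all 37 passed the filter that 16613 genes passed (3 or more libraries with a value of 10 or higher), with values of at least 10 in 42 of 42 libraries. Tumours had been grown under the skin of C57BL/6 mice from Pan02, a mouse pancreatic adenocarcinoma line, and total RNA of 42 tumours, each from a separate animal, was sequenced. The study asked how inhibition of dipeptidyl peptidases alters the immune makeup of these tumours over time. Mice received BXCL701 by daily oral gavage at 20 ug per mouse, or vehicle (PBS). BXCL701, also called talabostat, inhibits the serine proteases DPP4, DPP8, DPP9 and fibroblast activation protein. Each of 14 groups held 3 tumours. Vehicle tumours were taken at 0 h on day 1 (after a single dose), day 7 and day 14. On day 1, BXCL701 tumours were taken 1, 8 and 16 h after the dose. On days 7 and 14, after daily dosing, the hours were 0, 1, 8 and 16. Vehicle tumours at 1, 8 and 16 h were not analysed here. Treatment and hour therefore cannot be told apart in a comparison that pools the hours of a day, and only 0 h on days 7 and 14 has both arms. All groups share the host strain and the tumour line, which was implanted outside its organ of origin, and the age of the animals is not given in the labels.

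Type I interferons are cytokines that bind the IFNAR1 and IFNAR2 receptor pair. The receptor activates the kinases JAK1 and TYK2, and phosphorylated STAT2 then acts with IRF9 in a complex called ISGF3. ISGF3 enters the nucleus and binds the interferon-stimulated response element, a pair of GAAA blocks in the promoters of many genes that limit virus growth, sense foreign nucleic acid or amplify the response. In tumours the same genes are read as a sign of interferon made by, or acting on, malignant and infiltrating immune cells. Interferon gamma acts through another receptor, and many of the 37 genes also respond to it.

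The response element is the promoter sequence by which ISGF3 is known to act on this family, so the promoters of 6 members are shown: 2 that rose on day 14 (Stat2 and Oas3) and 4 that did not pass the test (Isg15, Ifit1, Rsad2 and Bst2). Each sequence is the 250 bases before the start site, 5′ to 3′ on the strand of the gene, from RefSeq on GRCm38.p6. Capitals mark matches to the response element core (GAAA, any 2 bases, GAAA), searched on both strands. A match on the other strand reads as the reverse complement (TTTC, any 2 bases, TTTC), and overlapping matches form 1 run of capitals. The positions are chr10:128270248-128270497 (plus strand) for Stat2, chr5:120777660-120777909 (minus strand) for Oas3 and chr4:156200819-156201068 (minus strand) for Isg15. They are chr19:34640639-34640888 (plus strand) for Ifit1, chr12:26456453-26456702 (minus strand) for Rsad2 and chr8:71537473-71537722 (minus strand) for Bst2.
Stat2: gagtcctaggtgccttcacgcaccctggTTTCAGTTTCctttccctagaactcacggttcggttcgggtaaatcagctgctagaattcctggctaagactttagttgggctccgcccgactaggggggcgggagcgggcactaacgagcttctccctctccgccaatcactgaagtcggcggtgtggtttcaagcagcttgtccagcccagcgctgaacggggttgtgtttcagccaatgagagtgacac
Oas3: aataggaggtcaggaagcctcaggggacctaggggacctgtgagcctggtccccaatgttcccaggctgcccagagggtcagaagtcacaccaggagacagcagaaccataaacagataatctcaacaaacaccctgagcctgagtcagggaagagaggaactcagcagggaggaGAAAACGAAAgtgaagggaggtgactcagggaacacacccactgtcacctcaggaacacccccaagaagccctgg
Isg15: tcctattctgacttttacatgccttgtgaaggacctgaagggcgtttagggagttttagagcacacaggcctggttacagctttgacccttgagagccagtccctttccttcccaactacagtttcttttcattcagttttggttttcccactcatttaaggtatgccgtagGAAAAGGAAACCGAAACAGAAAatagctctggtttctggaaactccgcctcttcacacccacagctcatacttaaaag
Ifit1: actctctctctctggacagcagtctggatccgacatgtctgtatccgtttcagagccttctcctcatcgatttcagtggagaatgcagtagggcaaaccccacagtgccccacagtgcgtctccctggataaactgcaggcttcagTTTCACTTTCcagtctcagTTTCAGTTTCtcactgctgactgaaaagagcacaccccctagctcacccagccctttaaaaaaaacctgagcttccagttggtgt
Rsad2: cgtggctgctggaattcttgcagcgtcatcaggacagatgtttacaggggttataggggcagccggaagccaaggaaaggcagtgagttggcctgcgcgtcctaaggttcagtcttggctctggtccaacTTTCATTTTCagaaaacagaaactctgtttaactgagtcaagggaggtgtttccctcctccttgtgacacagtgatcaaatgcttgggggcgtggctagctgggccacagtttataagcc
Bst2: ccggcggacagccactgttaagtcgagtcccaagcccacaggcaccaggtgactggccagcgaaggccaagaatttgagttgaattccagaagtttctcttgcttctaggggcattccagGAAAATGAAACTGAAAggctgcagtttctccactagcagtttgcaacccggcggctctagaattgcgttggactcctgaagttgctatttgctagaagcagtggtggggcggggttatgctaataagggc

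The Isg15 sequence held 3 overlapping matches, the first starting 78 bases before the start site. The Bst2 sequence held 2 overlapping matches and the Ifit1 sequence held 2 separate ones. The Stat2 match lay 222 bases and the Oas3 match 75 bases before the start site. In windows of 300 bases (250 before and 50 after the start site), 27 of the 37 members had an entry, and 12 of those 27 (44.4%) held a match, against 3.99% of all 27025 genes. Of all 32851 windows of that length, 3.44% held one. All 6 promoters shown above held a match, and the other members with one were Ifih1, Ddx58, Oas1a, Ifit3, Eif2ak2 and Trim30a. The 15 members with an entry and no match, among them Irf9, Oasl2, Ifi44 and Adar, which rose on day 14, are not shown. Among the members with an entry, 3 of the 7 that rose on day 14 and 9 of the 20 that did not pass held a match. A match is a run of letters and does not show that a factor binds there. Dhx58, Zbp1, Oas2, Mx1, Mx2, Usp18, Parp9, Parp14, Rtp4 and Ifi27l2a had no entry.

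On a scale that allows genes to be compared (FPKM, fragments per kilobase of exon, scaled to the mapped total), the members differed widely in level. Bst2, which encodes tetherin, a protein that holds budding virus at the cell surface, had the highest median over the 42 tumours at an FPKM of 327. Ifi27l2a followed at 142, Zbp1, a sensor of Z-form nucleic acid, at 79.3 and Ifit3 at 67.9. The lowest medians belonged to Mx2, annotated as a polymorphic pseudogene, at 1.63 and the oligoadenylate synthetase Oas3 at 1.45. Ifit2 varied most between tumours, with a 27.1-fold range of FPKM, then Ifi27l2a with 19.3-fold and Oas2 with 16.5-fold. Parp9 had the narrowest range, 2.92-fold. Several members have near-identical neighbours that can share reads (Oas1a with Oas1g, Ifit1 and Ifit3 with their copies, Trim30a with Trim30d, and Sp100), so their separate values are uncertain. Parp9 and Dtx3l overlap by 682 bases on opposite strands, and the use of strand in counting is not given in the sources used here, so reads from the overlap cannot be told apart.

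The table that was tested holds deposited values, estimated reads per gene scaled per library, and differences are given on the log2(value + 1) scale. Summed over genes they came to between 19133100 and 26633400 per library, and the read depth behind them is unknown. Keratin genes of epithelial tumour cells were present in every tumour, with Krt8 between 9774 and 45922 and Krt18 between 4565 and 31584, whereas Epcam, an epithelial surface protein, ranged from 1.67 to 269. A transcript-length index (the slope of a library's gene deviations on log2 exon length) was extreme in 4 libraries. It was -0.411 for replicate 3 of BXCL701 at 8 h on day 7, -0.368 for replicate 2 of vehicle on day 1, 0.333 for replicate 2 of vehicle on day 7 and 0.326 for replicate 2 of BXCL701 at 0 h on day 7. Of the 37 members, 10 had their highest value of all 42 tumours in the last of these libraries, and in the first 6 had their lowest and 5 their highest. The library with the most highest values (11 members) was replicate 1 of BXCL701 at 16 h on day 14, whose index was not among these 4. RNA came from whole tumours, so fewer cells of a type and less RNA per cell cannot be told apart.

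On day 14 the interferon-stimulated genes stood higher in BXCL701 tumours than in vehicle tumours. Of the 37 members, 11 rose and 0 fell over the 12 BXCL701 tumours of all hours against the 3 vehicle tumours (limma, Benjamini-Hochberg adjusted p under 0.05 over all genes tested), where 2.26% of all genes rose and 1.03% fell. All 37 differences were above 0 under each of the 4 ways of scaling and offsetting the values, with a median of 0.67, beside a median of -0.01 for all genes tested, of which 48.4% were higher. In 4 members (Parp14, Oasl2, Zbp1 and Rsad2) all 12 BXCL701 tumours lay above all 3 vehicle tumours, which 0.843% of all genes did. The genes that rose were the sensor Ifih1, the factors Stat2 and Irf9, the synthetase family members Oas2, Oas3 and Oasl2, the GTPase Mx1, the ADP-ribosyltransferases Parp9 and Parp14, the RNA editing enzyme Adar, and Ifi44.

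**Figure D1:**
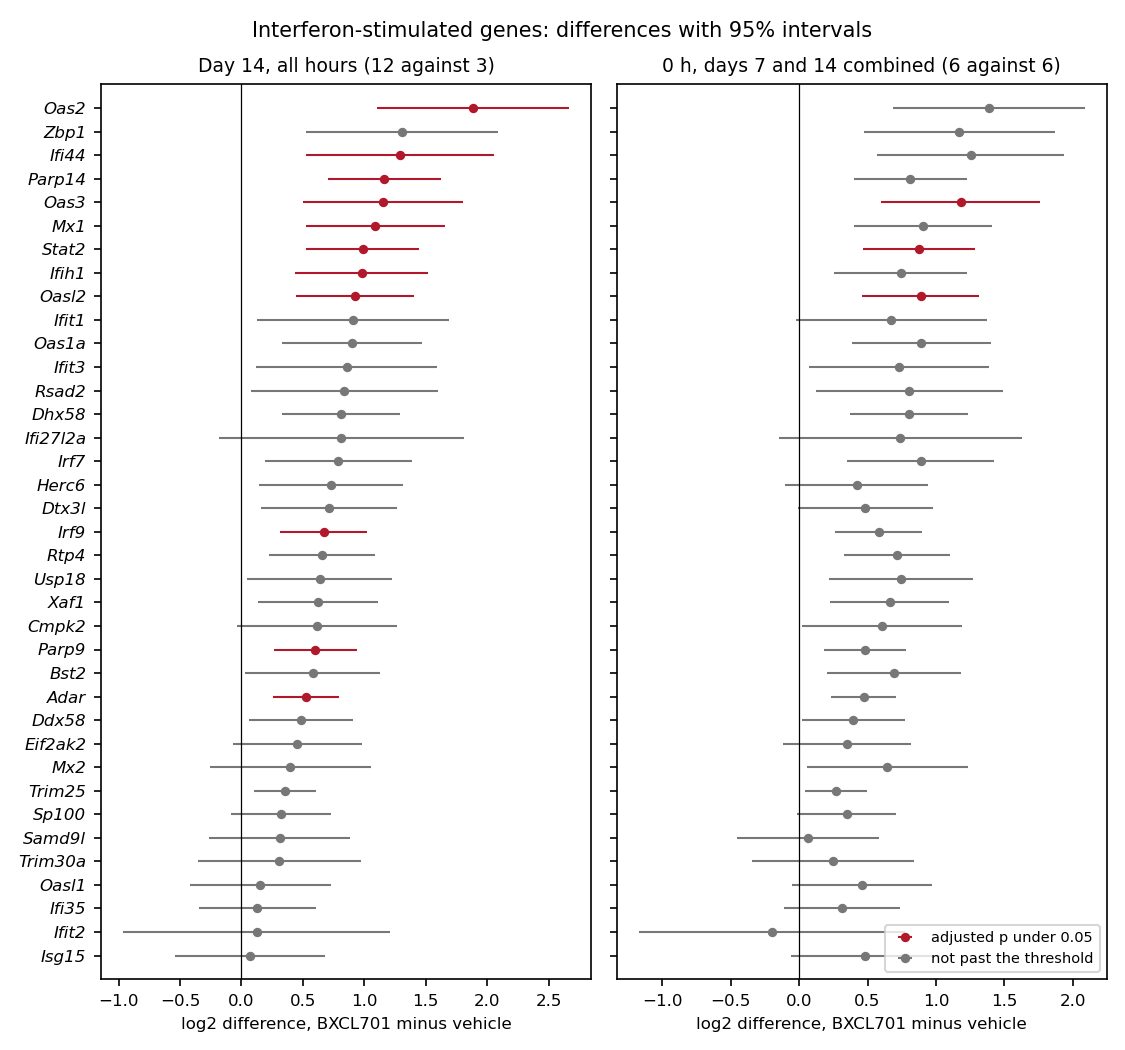
Log2 differences between BXCL701 and vehicle tumours (horizontal axis) with 95% intervals for the 37 genes, on day 14 over all hours (left) and at 0 h on days 7 and 14 combined (right), red where the adjusted p was under 0.05. On the left all 37 points lie right of 0 and 11 are red; on the right 36 lie right of 0 and 3 are red.

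Among the transcription factors, Stat2, the ISGF3 subunit used by type I but not type II interferon (chr10:128270559-128292849), had deposited values of 702, 404 and 838 in the 3 vehicle tumours. In the 12 BXCL701 tumours it ranged from 831 to 1964 with a median of 1253. Apart from 1 BXCL701 tumour at 831, all BXCL701 tumours lay above the vehicle tumours, and the log2 difference was 0.99 ± 0.22 (SE, limma adjusted p = 0.0147). Irf9, which gives ISGF3 its DNA contact (chr14:55603571-55610030), was 884, 613 and 877 in vehicle and 862 to 1917 (median 1254) under BXCL701. Again 11 of 12 BXCL701 tumours exceeded all vehicle tumours, a log2 difference of 0.67 ± 0.17 (limma adjusted p = 0.0271). Irf7, the factor that amplifies interferon alpha production, differed by 0.79 ± 0.29 and did not pass (limma adjusted p = 0.132).

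The oligoadenylate synthetases make the second messenger that activates RNase L, and 3 of the 5 members rose. Oas2 (chr5:120730333-120749853) had values of 86.3, 48.1 and 234 in vehicle and 206 to 988 (median 330) under BXCL701. This was the widest difference of all members, 1.88 ± 0.38 (limma adjusted p = 0.0086), and 1 vehicle tumour (replicate 3) lay inside the BXCL701 range. Oas3 (chr5:120753098-120777661) was 50.4, 46.4 and 107 in vehicle and 94.4 to 236 (median 130) under BXCL701. Its difference was 1.15 ± 0.32 (limma adjusted p = 0.0388), and again replicate 3 of the vehicle group overlapped the BXCL701 tumours. Oasl2, a synthetase-like member of the family (chr5:114896936-114912234), was 1091, 871 and 1014 in vehicle and 1408 to 3351 (median 1759) under BXCL701, with no overlap (0.93 ± 0.23, limma adjusted p = 0.0244). Oas1a differed by 0.90 ± 0.28 (limma adjusted p = 0.0658) and Oasl1, which restrains Irf7 translation, by 0.15 ± 0.28.

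Of the 4 sensors, Ifih1 rose. Ifih1 encodes MDA5, which binds long double-stranded RNA (chr2:62595798-62646255), and its values were 101, 64.8 and 176 in vehicle and 123 to 294 (median 217) under BXCL701. The groups overlapped, with 9 of 12 BXCL701 tumours above all vehicle tumours, and the difference was 0.98 ± 0.27 (limma adjusted p = 0.0349). Zbp1 was 483, 759 and 884 in vehicle and 919 to 3429 (median 1816) under BXCL701. The groups did not overlap, yet with a difference of 1.31 ± 0.38 it just missed the threshold (limma adjusted p = 0.0518). Dhx58, the regulator LGP2, missed it too (0.81 ± 0.24, limma adjusted p = 0.0502), and Ddx58, the RIG-I sensor, differed by 0.48 ± 0.21.

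The PARP9 and DTX3L proteins form a complex of ADP-ribosyltransferase and ubiquitin ligase that modifies histones and viral proteins, and PARP14 is a related transferase. Parp14 (chr16:35832874-35871544) had values of 1075, 702 and 1101 in vehicle and 1148 to 3176 (median 2131) under BXCL701. No tumours overlapped, and its difference of 1.16 ± 0.23 had the smallest adjusted p of the members (limma adjusted p = 0.00673). Parp9 (chr16:35938470-35972605) differed by 0.60 ± 0.16 (limma adjusted p = 0.0369), with 11 of 12 BXCL701 tumours above all vehicle tumours. Dtx3l differed by 0.71 ± 0.27, the RIG-I ubiquitin ligase Trim25 by 0.36 ± 0.12 and Trim30a by 0.31 ± 0.32, and none of these passed.

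Mx1 encodes a GTPase that traps viral nucleocapsids, and C57BL/6 mice are known to carry a defective Mx1 allele. Mx1 (chr16:97447035-97462907) was 40.2, 39.2 and 95.3 in vehicle and 75.9 to 191 (median 115) under BXCL701, a difference of 1.09 ± 0.28 (limma adjusted p = 0.0253). The 2 lower vehicle tumours lay below every BXCL701 tumour and replicate 3 lay among them. Mx2 differed by 0.40 ± 0.32. Adar (chr3:89715022-89753446), which turns adenosine into inosine in double-stranded RNA, was 1521, 1062 and 1369 in vehicle and 1502 to 2676 (median 1767) under BXCL701. Its difference was modest at 0.52 ± 0.13 (limma adjusted p = 0.0235), with 11 of 12 BXCL701 tumours above all vehicle tumours. Ifi44 (chr3:151730922-151749960) was 64.6, 63.1 and 117 in vehicle and 108 to 310 (median 192) under BXCL701, 1.29 ± 0.37 (limma adjusted p = 0.0498), the call nearest to the threshold.

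Isg15 and the IFIT genes, common readouts of an interferon response, did not pass on day 14. Isg15, the ubiquitin-like modifier, was 505, 867 and 407 in vehicle and 322 to 995 (median 557) under BXCL701. The vehicle tumours spanned most of the BXCL701 range, and the difference was 0.07 with a 95% interval from -0.54 to 0.68. Usp18, which removes ISG15 and blocks the receptor, differed by 0.64 ± 0.29 and Herc6, the mouse ISG15 ligase, by 0.73 ± 0.29, neither past the threshold. The IFIT proteins bind viral RNA, and none of the 4 genes of the IFIT and PKR group passed: Ifit1 differed by 0.91 ± 0.38, Ifit3 by 0.86 ± 0.36, Ifit2 by 0.13 ± 0.53 and Eif2ak2, the translation-blocking kinase PKR, by 0.46 ± 0.26. Ifit2 was 816, 1094 and 514 in vehicle and 322 to 2268 (median 891) under BXCL701, so that the vehicle tumours lay inside the BXCL701 range.

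Rsad2 encodes viperin, which makes a chain-terminating nucleotide, and it was 78.8, 136 and 83.2 in vehicle and 137 to 237 (median 174) under BXCL701. The groups did not overlap, by a narrow margin, and the difference of 0.84 ± 0.37 did not pass (limma adjusted p = 0.226). Its partner Cmpk2, a nucleotide kinase, differed by 0.62 ± 0.32. Of the other effectors, Rtp4 differed by 0.65 ± 0.21 (limma adjusted p = 0.0782), Xaf1 by 0.62 ± 0.24, Bst2 by 0.58 ± 0.27, Ifi27l2a by 0.81 ± 0.49, Sp100, a nuclear body component, by 0.32 ± 0.20, Samd9l by 0.31 ± 0.28 and Ifi35 by 0.13 ± 0.23. None of these 7 passed. Ifi27l2a reached 4983 in replicate 1 at 1 h on day 14 and 249 in replicate 1 at 8 h, a wider spread than between the arms.

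**Figure D2:**
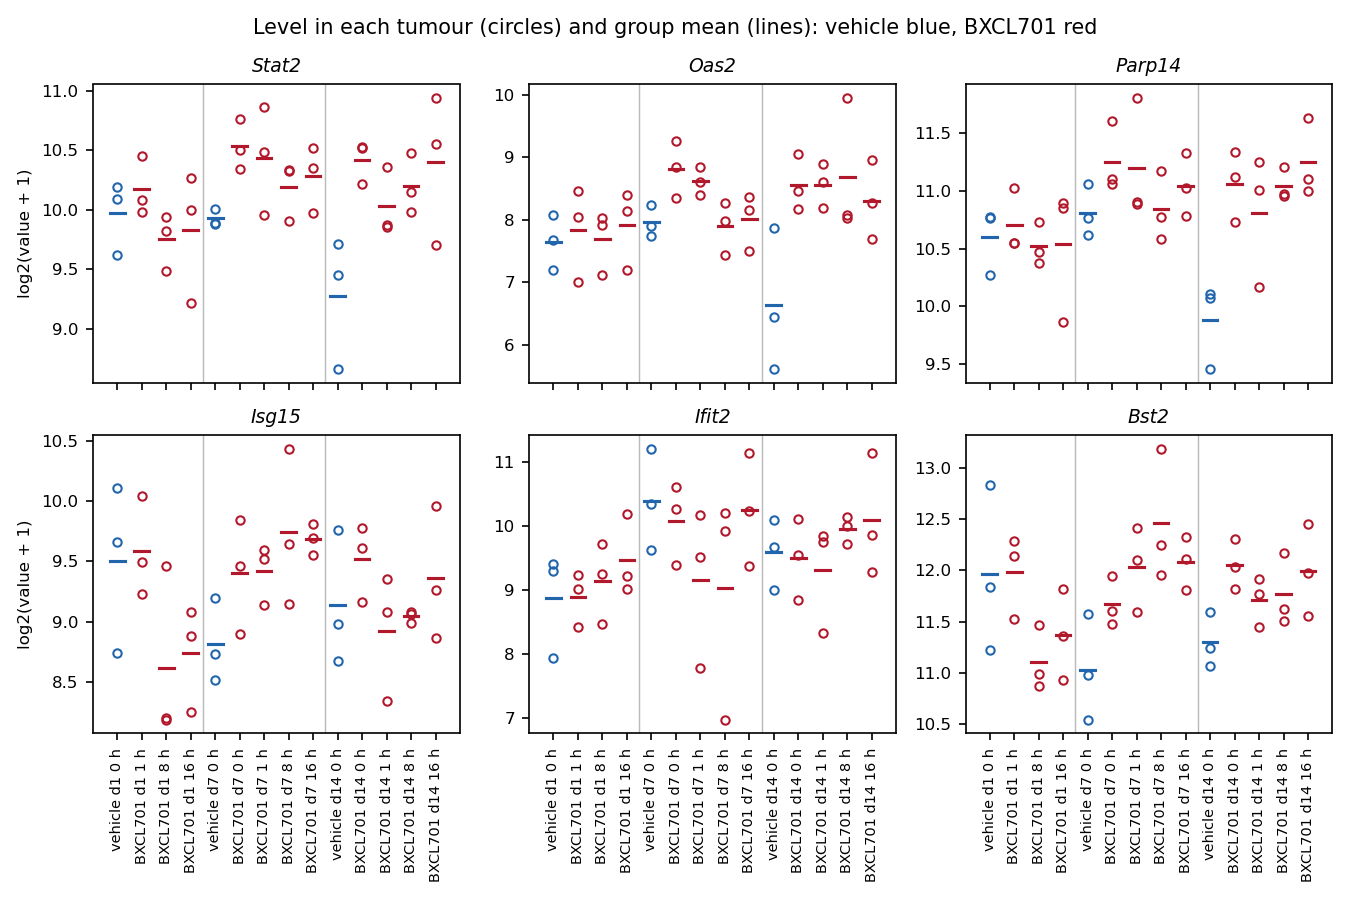
Level of 6 genes in each of 42 tumours (circles) with the group mean (line), as log2(value + 1) on the vertical axis and the 14 groups on the horizontal axis, vehicle in blue and BXCL701 in red; d is the day. Stat2, Oas2 and Parp14 are lowest on average in vehicle tumours of day 14, whereas Isg15, Ifit2 and Bst2 are not.

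The day 14 result rests on 3 vehicle tumours, and these were low for the family. Vehicle day 14 had the lowest mean of the 14 groups for 19 of the 37 members, and its median deviation from the mean of all groups was -0.53, beside -0.16 in vehicle on day 1 and -0.16 in vehicle on day 7. Its replicate 2 had the lowest value of all 42 tumours for 10 members. Without that tumour 0 members and 0.00602% of all genes passed. The difference then fell from 0.99 to 0.68 for Stat2 and from 1.16 to 0.95 for Parp14, with limma adjusted p of 0.536 and 0.326. Without replicate 1, 4 members and 1.31% of all genes passed. Without replicate 3, the highest of these 3 vehicle tumours for Stat2, Oas2, Oas3 and Mx1, 13 members passed, but so did 12.2% of all genes, against 3.29% with it. Leaving out single BXCL701 tumours of day 14 gave 7 to 14 members and 2.41% to 3.77% of all genes. With the spread estimated from the 15 libraries of this comparison alone, 0 members passed. The share of all genes that passed in that setting is not given here.

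Markers of immune cells moved in the same comparison, where 2.26% of all genes rose. All 8 genes of a general leukocyte list were higher on day 14 (1 rose), with a median difference of 0.49, and their summed value was 14546 to 23601 in vehicle and 17689 to 29893 under BXCL701. All 9 T cell genes were higher (2 rose, median 1.08), with sums of 382 to 1353 in vehicle and 769 to 1989 under BXCL701. All 10 macrophage genes were higher (2 rose, median 0.49), with sums of 32840 to 54468 and 38015 to 81495. Of 11 neutrophil genes 10 were higher (7 rose, median 1.44), with sums of 2488 to 4173 and 2995 to 10455. The part of T cells, macrophages and neutrophils in the result was not tested. Plasmacytoid dendritic cells are known for making large amounts of type I interferon. Of 6 tested genes of their list 3 were higher and 0 rose, with sums of 467 to 1524 in vehicle and 660 to 2724 under BXCL701, sums that include genes other cells also express, such as Lair1 (349 to 1177 over the 42 tumours) and Cox6a2 (0.691 to 2038). Of the markers more particular to these cells, Siglech reached 22.9, Ccr9 12.2 and Klk1 9.73 in any tumour, while Spib and Pacsin1 reached 53.8 and 55.8. With the mean leukocyte level of each tumour as a covariate, 0 members passed, and 34 of 37 differences stayed above 0 (all but Oasl1, Isg15 and Ifi35) with a median of 0.38. The Stat2 difference was then 0.24 ± 0.24, that of Oas2 0.71 ± 0.43 and that of Parp14 0.60 ± 0.28 (limma adjusted p = 0.88 for each). The share of all genes that passed with this covariate is not given here, so the loss of calls is not a result about the members.

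Across the 42 tumours, the leukocyte level tracked some members and not others, among 74 relations computed (37 members with this list and with the transcript-length index). Stat2 had the highest Pearson r, 0.74 (Spearman rho = 0.67), and Dhx58 the highest rho, 0.73. For Stat2 the permutation p was 1e-05 for both r and rho, the smallest that the 100000 resamples can give, with Benjamini-Hochberg adjusted values of 4.63e-05 and 8.22e-05. The 2 tumours farthest from the median leukocyte level were replicates 1 and 2 of vehicle on day 14, and without them r was 0.61, below 0.63 for Dhx58 and 0.62 for Zbp1. Within the 9 vehicle tumours r was 0.92 and within the 33 BXCL701 tumours it was 0.54. Oas3 gave r = 0.69 (rho = 0.60, adjusted permutation p = 4.63e-05 and 0.000135), with 0.97 in vehicle and 0.42 under BXCL701. For Ifih1, r = 0.41 (rho = 0.17, adjusted permutation p = 0.0167 and 0.344) rested on those 2 tumours, since it was 0.07 without them. Ifit2 had r = -0.16 (rho = -0.12, adjusted permutation p = 0.363 and 0.527), and 22 of 37 members passed for Pearson's r. The share of all genes that would pass was not computed, so this count is not a result about the members. All these tumours share the 14 groups, so treatment and day also enter these relations. The permutations shuffled tumours across groups, so their p does not separate group differences from differences between tumours. After group means were removed, r was 0.65 for Stat2, 0.53 for Oas3, 0.24 for Ifih1 and -0.27 for Ifit2.

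**Figure D3:**
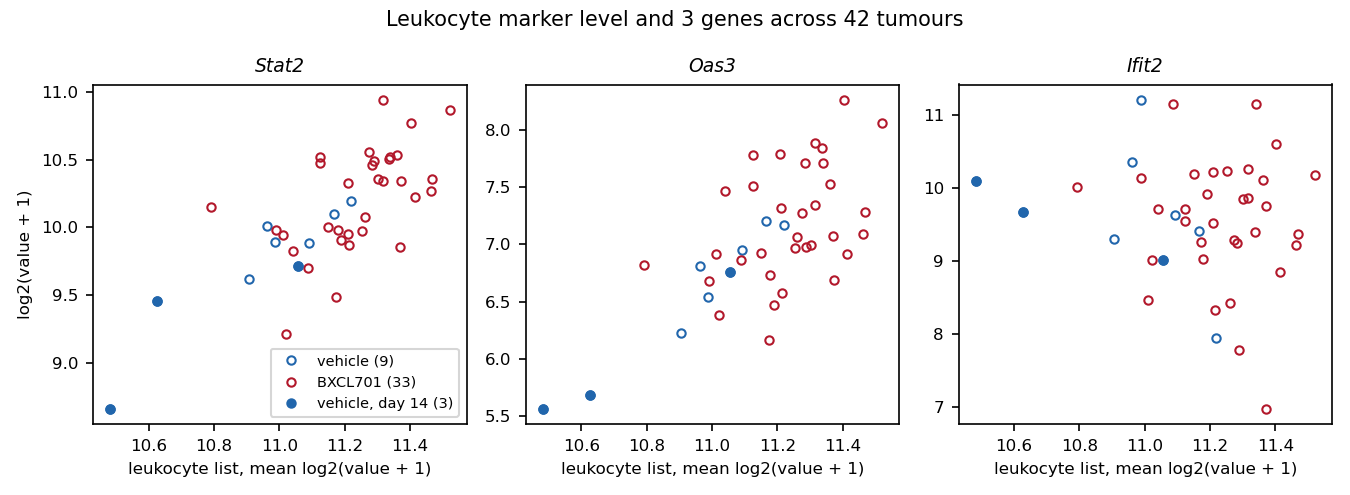
Level of Stat2, Oas3 and Ifit2 (vertical axis, log2(value + 1)) against the mean log2(value + 1) of 8 leukocyte genes (horizontal axis) in 42 tumours, vehicle in blue (day 14 filled) and BXCL701 in red. The 2 vehicle tumours of day 14 at the left edge have the lowest leukocyte level and the lowest Oas3; Ifit2 shows no such slope (r = -0.16).

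At 0 h, where both arms were sampled, the members were also mostly higher under BXCL701. For days 7 and 14 combined (6 tumours against 6) 3 members rose, where 0.476% of all genes rose, and 36 of 37 were higher with a median of 0.67 (all genes -0.02). Stat2 ranged from 404 to 1030 in vehicle (median 892) and from 1193 to 1742 under BXCL701 (median 1457). The groups did not overlap, and the difference was 0.88 ± 0.20 (limma adjusted p = 0.0434). Oasl2 ranged from 871 to 1720 in vehicle (median 1156) and from 1408 to 2653 under BXCL701 (median 2431), a difference of 0.89 ± 0.21 (limma adjusted p = 0.0465). Oas3 ranged from 46.4 to 123 in vehicle (median 99.7) and from 119 to 305 under BXCL701 (median 183), a difference of 1.18 ± 0.29 at the edge of the threshold (limma adjusted p = 0.04998). Dhx58 was the other member without overlap (2 members, against 0.596% of all genes), from 161 to 323 in vehicle and 333 to 514 under BXCL701, but its adjusted p was 0.0677 by limma. Leaving out any 1 of 11 of these 12 tumours left 0 members past the threshold, and leaving out replicate 3 of vehicle on day 14 gave 14, while the share of all genes called went from 0.512% to 4.86%.

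On day 14 at 0 h alone (3 tumours against 3), 3 members rose, where 0.698% of all genes rose. Parp14 was 2229, 1699 and 2588 under BXCL701 against the vehicle values above, a difference of 1.19 ± 0.28 (limma adjusted p = 0.0416). Adar was 2293, 1759 and 2232 (0.67 ± 0.17, limma adjusted p = 0.0471), and Stat2 was 1464, 1193 and 1480 (1.15 ± 0.28, limma adjusted p = 0.0481). For 21 of 37 members the 3 BXCL701 tumours all lay above the 3 vehicle tumours, which 6.69% of all genes did. This comparison shares its vehicle tumours with that over all hours. Leaving out any 1 of 4 of the 6 tumours left 0 members past the threshold, with as few as 0 of all genes called. The share of all genes for each of the 4 is not given here, so this loss is not a result about the members. Without replicate 2 of BXCL701 2 members and 0.385% of all genes passed, and without replicate 3 of vehicle 10 members and 7.54% of all genes did, against 0.783% with all 6 tumours.

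On day 7 the members leaned the same way by less. At 0 h, 35 of 37 were higher with a median of 0.56 and 0 passed (0% of all genes), although 6 had an unadjusted p under 0.05 by limma, as did 2.15% of all genes. For 15 members all 3 BXCL701 tumours lay above all 3 vehicle tumours, which 3.36% of all genes did. Stat2, for example, was 1296, 1742 and 1451 under BXCL701 and 1030, 951 and 945 in vehicle (0.61 ± 0.28). Over all hours of day 7, 32 of 37 were higher with a median of 0.41 and 0 passed (0.00602% of all genes), with 11 at an unadjusted limma p under 0.05, as were 9.87% of all genes. Bst2 led them: it was 3050, 1491 and 2020 in vehicle and 2841 to 9306 (median 4184) under BXCL701. In 11 of 12 BXCL701 tumours it lay above all vehicle tumours (1.03 ± 0.27, limma adjusted p = 0.386), and the highest value was in the library with the lowest transcript-length index. Ifit2, Eif2ak2, Trim25, Trim30a and Samd9l were not higher. The 0 h difference on day 14 minus that on day 7 was positive for 32 of 37 members, with a median of 0.27. Parp14 had the smallest p (0.74, 95% interval -0.08 to 1.57). None passed (0% of all genes), and 0 had an unadjusted p under 0.05 (2.77% of all genes), so a larger difference on day 14 than on day 7 was not detectable with 3 tumours a group.

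On day 1, after a single dose, no shift was detected. Over the 3 hours 14 members were higher and 23 lower than in vehicle, with a median of -0.08. None passed the adjusted threshold (0% of all genes), and 0 had an unadjusted p under 0.05 by limma (2.63% of all genes). By hour, the median difference was 0.09 at 1 h, -0.13 at 8 h and -0.19 at 16 h. The largest was for Isg15 (-0.52 ± 0.31, 95% interval -1.15 to 0.11), which was 807, 1103 and 426 in vehicle.

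**Figure D4:**
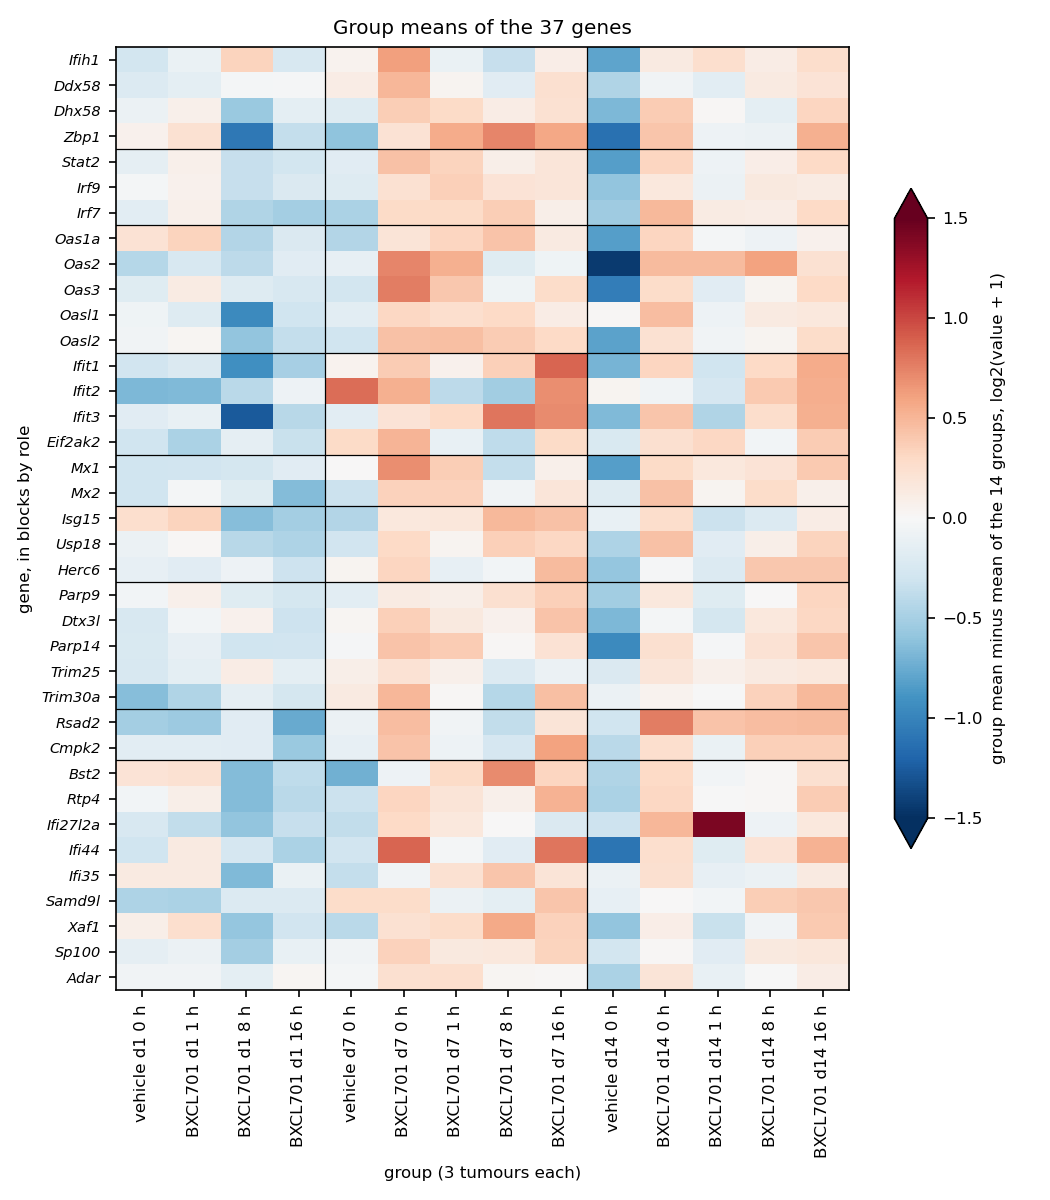
Mean of each of the 37 genes (rows, in blocks by role) in the 14 groups (columns, d is the day), as the deviation from the mean of the 14 groups on the log2(value + 1) scale; blue is lower and red is higher, with colours limited at 1.5. The vehicle day 14 column is mostly blue (lowest for 19 genes), and the BXCL701 columns at 0 and 16 h of days 7 and 14 are mostly red.

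Among vehicle tumours the family was lower on day 14 than earlier, without passing the test. Against day 7, 31 of 37 members were lower with a median of -0.40, and 8 had all 3 day 14 tumours below all 3 day 7 tumours (7.18% of all genes). None passed (0% of all genes). Parp14 had the smallest p, at -0.94 ± 0.28 (limma adjusted p = 0.138): its values were 1737, 2137 and 1570 on day 7. Against day 1, 29 of 37 were lower (median -0.42) and 0 passed (0.0602% of all genes), with 11 at an unadjusted p under 0.05, as were 12% of all genes. Without replicate 3 of vehicle on day 14, Oas2, Ifih1, Mx1 and Parp14 fell against day 7 and Oas1a and Oas2 fell against day 1 (limma adjusted p from 0.0158 to 0.0457). All genes called were then 7.8% against day 7 and 6.13% against day 1, near the 10.8% and 5.41% of members, so these calls are not a result about the members. Between vehicle on days 1 and 7 the median difference was 0.00, and 0 passed (0% of all genes), with 4 at an unadjusted p under 0.05, as were 18.4% of all genes. Bst2 (-0.93 ± 0.34) and Ifit2 (1.51 ± 0.67) had the smallest p there. Replicate 2 of each of these groups had an extreme transcript-length index (-0.368 on day 1 and 0.333 on day 7). In these 2 libraries, in that order, Bst2 was 7275 and 1491 and Ifit2 was 246 and 2365.

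Within BXCL701 tumours of days 7 and 14, harvest hours and days were not separated by these genes. At 1 h 35 of 37 members were lower than at 0 h (median -0.22; 0 passed, against 0.012% of all genes). At 8 h 31 were lower (median -0.21; 0 passed, against 0.132% of all genes), with Eif2ak2 of smallest p at -0.59 ± 0.23 (limma adjusted p = 0.454) and 4 members at an unadjusted p under 0.05, as were 9.16% of all genes. At 16 h the median was -0.01 (0 passed, against 0.00602% of all genes). All 3 share the 0 h tumours. On day 14 the median difference from the same 3 vehicle tumours was 0.75 at 0 h, 0.40 at 1 h, 0.58 at 8 h and 0.83 at 16 h, and 33 to 37 members were higher at each hour. Day 14 against day 7 under BXCL701 gave a median of -0.10 with 25 members lower, and 0 passed (0.012% of all genes).

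The members mostly varied together across tumours. Over the 42 libraries, as a description, the 666 pairs had a median Pearson r of 0.54, and 0.45 after group means were removed. Oasl2 and Irf9 were closest (r = 0.92). Oasl2 also followed the mean of the other members most closely (0.91), and Ifit2 least (0.28). Some pairs ran against each other, with Ifi35 and Ifih1 lowest at r = -0.50. These pairs share libraries and therefore anything that moves many genes in a library at once. Pairs of other genes were not computed, so the shared variation cannot be called particular to the members.

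A second pattern ran along transcript length. The r of each member with the transcript-length index went from 0.80 for Eif2ak2 (exon length 5113 bases), 0.75 for Ifit2 (3927 bases) and 0.72 for Ifih1 (8165 bases) to -0.53 for Isg15 (756 bases), -0.67 for Bst2 (903 bases) and -0.77 for Ifi35 (1727 bases). Over the 37 members, as a description, log2 exon length had r = 0.62 with these values. The index is itself a slope on exon length over many genes, so such a relation is built in. It is not a result about the members. Among all genes tested, the r of Eif2ak2 stood at percentile 89.7 and that of Ifi35 at percentile 10. For Eif2ak2 rho was 0.73 and for Ifi35 -0.72, each with an adjusted permutation p of 4.63e-05 for r and 8.22e-05 for rho. Without the 2 libraries farthest from the median index (replicate 3 of BXCL701 at 8 h on day 7 and replicate 2 of vehicle on day 1), r was 0.76 and -0.66. For Stat2, of 5926 bases, r was 0.03 (rho = -0.05, adjusted permutation p = 0.86 and 0.774). With the index as a covariate, 19 members rose on day 14 and the Stat2 difference was 0.99 (limma adjusted p = 0.00553). Ifit2 and Trim30a were then lower, at -0.38 and -0.02, and the other 35 members were higher. With the 4 libraries of extreme index left out, 15 members rose on day 14 over all hours, 0 at 0 h on both days and 1 at 0 h on day 14. For these settings the share of all genes called is not given here. The higher counts are therefore not results about the members.

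**Figure D5:**
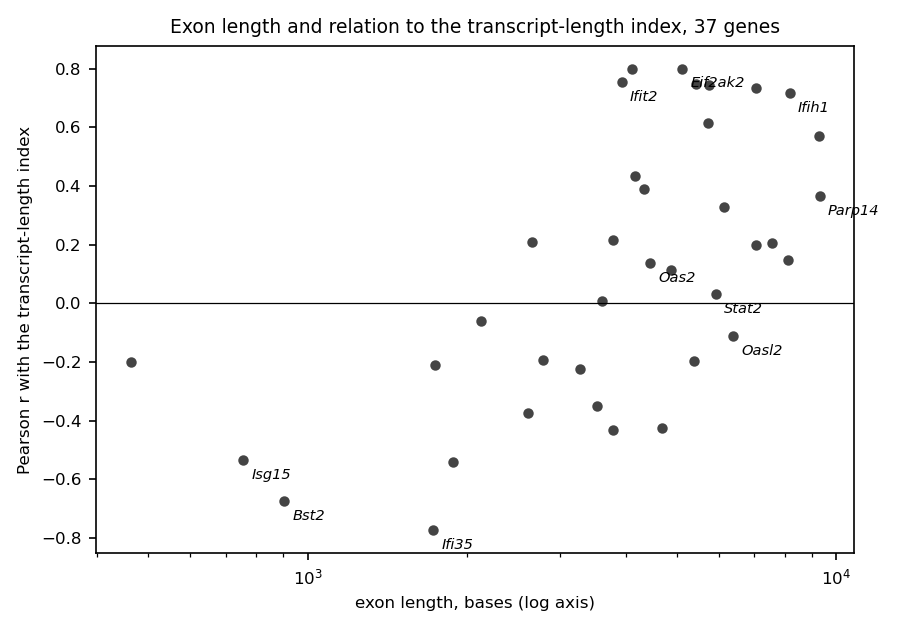
Exon length of the 37 genes in bases (horizontal log axis) against the Pearson r of each gene with the transcript-length index over 42 tumours (vertical axis). Short transcripts such as Isg15 and Bst2 lie below 0 and some long ones, such as Ifih1 and Eif2ak2, lie near the top. Other long ones lie lower, such as Parp14, the longest (9306 bases, r = 0.36), and Oasl2 (6374 bases, r = -0.11). The r over the 37 points is 0.62, and the index is itself built from exon lengths.

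Upstream of these genes, interferon transcripts were low. Of 19 type I and type III interferon genes, 11 were at 0 in all 42 libraries and 18 stayed under a value of 10. Ifnb1, the early type I interferon, was listed at 0 in 32 of 42 libraries and reached 2.31. Ifnz passed the filter with a median of 16.2 and differed by 0.08 on day 14 (limma adjusted p = 0.953). Ifng, made by T and NK cells, was 8.86, 9.98 and 6.58 in vehicle on day 14 and 3.22 to 45.2 (median 17.3) under BXCL701. With 11 of 12 BXCL701 tumours above all vehicle tumours it differed by 0.98 ± 0.55 and did not pass (limma adjusted p = 0.371). Of the receptors, Ifnar1 differed by 0.32 ± 0.11 (limma adjusted p = 0.082) and Ifnar2 by 0.12 ± 0.09, whereas Ifngr1, the ligand-binding chain for interferon gamma, rose by 0.53 ± 0.14 (limma adjusted p = 0.0272). It was the 1 gene of the 8 tested in the list of interferons and receptors that rose, and 0 fell. Of all genes, 2.26% rose and 1.03% fell in this comparison.

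Among 17 signalling genes and regulators 5 rose on day 14 and 0 fell, with a median of 0.42. Of all genes, 2.26% rose and 1.03% fell there. The named calls of this list follow. Tyk2, the kinase of IFNAR1, rose by 0.73 ± 0.20, Stat3 by 0.42 ± 0.12, Irf8, a factor of myeloid cells, by 0.87 ± 0.24 and the kinase Ikbke by 0.61 ± 0.17. Irf1, induced mainly by interferon gamma, differed by 0.49 ± 0.26 and did not pass. At 0 h on days 7 and 14 combined, Irf8 rose (0.89 ± 0.21, limma adjusted p = 0.0477), where 0.476% of all genes rose.

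Of 17 nucleic acid sensing genes 4 rose and 1 fell on day 14 (2.26% and 1.03% of all genes), with a median of 0.36. Tlr13, a receptor for bacterial ribosomal RNA, rose by 0.69 ± 0.14 and Tlr9, a receptor for DNA in endosomes, by 1.11 ± 0.32. Samhd1, a dNTP hydrolase, rose by 0.63 ± 0.17 and Mavs, the adaptor of MDA5 and RIG-I, by 0.35 ± 0.10, whereas Rnaseh2b, a subunit of RNase H2, fell by 0.47 on the log2 scale. In a list of 55 other interferon-induced genes, 51 were tested, with 48 higher and a median of 0.50. Of these, 9 rose and 0 fell, against 2.26% and 1.03% of all genes. Those that rose were Helz2 (1.10 ± 0.22), Slfn8 (1.30 ± 0.27), Parp12 (0.93 ± 0.20), Znfx1 (0.68 ± 0.15), Lgals3bp (0.88 ± 0.21), Oas1g (1.14 ± 0.29), Uba7, the ISG15-activating enzyme (0.78 ± 0.21), Trim34a (0.85 ± 0.23) and Pydc3 (1.23 ± 0.34). Slfn8 was 221, 161 and 368 in vehicle and 369 to 985 (median 558) under BXCL701, so the groups did not overlap, by a narrow margin. Cxcl10, a chemokine for T cells, differed by 0.93 ± 0.38 and did not pass (limma adjusted p = 0.171). At 0 h on day 14 alone, Slfn8, Helz2, Lgals3bp, Parp12 and Znfx1 rose, and over both days at 0 h Oas1g, Parp12 and Znfx1 did. Of all genes, 0.698% and 0.476% rose in these comparisons, in that order. Of the 20 calls of pathway genes on day 14 over all hours, 4 were still called without replicate 1 of vehicle, 0 without replicate 2, 0 with the leukocyte level as a covariate and 0 with the libraries of the comparison alone.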

How the data were processed

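RNA of 42 tumours (14 groups of 3 animals) was sequenced. The tools were Trimmomatic 0.36 and Bowtie 0.12.9 on GRCm38, per the submitters' processing notes (quantifier and scaling: not given in the sources used here). As for units, the tested table, as the authors deposited it, holds a signal per gene, estimated reads that are not whole numbers and are scaled per library, so no count test was run and no depth is known. The authors also deposited log2 FPKM values, used here for levels between genes and as an alternative.

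Groups came from the labels. Values were tested with limma 3.58.1 (R 4.3.3) on log2(value + 1), with trend and robust options, in 1 model of 14 groups (28 residual degrees of freedom), after a filter of at least 10 in at least 3 libraries. Benjamini-Hochberg adjustment ran over the 16613 genes tested in each of 14 comparisons, and p under 0.05 counted as called. SE is the model's standard error, and p-values are two-sided. The scripts were tested on simulated data. Exon lengths came from GENCODE M21, which matched 47310 identifiers, and promoters from RefSeq. The transcript-length index used 11491 genes with a mean of at least 100.

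The members, gene lists and markers were chosen with earlier results of these data known. The named genes are all 37 members, the up to 5 pathway genes of smallest adjusted p per list among those past the threshold, and fixed pathway genes (Ifnb1, Ifnar1, Ifnar2, Irf1, Ifng and Cxcl10), apart from 1 gene that is not reported here. Ifnz, Oas1g, Uba7, Trim34a and Pydc3 were named after their values were seen, as were the tumours singled out. Alternatives were another scaling, the log2 FPKM table, a pseudocount of 5, no filter, fewer libraries and covariates.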

Additional observations from a re-analysis of the deposited data

How the results depend on the processing

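No paired analysis was possible because the replicate numbers were given in accession order and pair no tumours. The number of members past the threshold was 11 for day 14 over all hours, 3 for 0 h on both days and 3 for 0 h on day 14. In that order it was 7, 0 and 0 without a filter on low values, 0, 0 and 0 with only the libraries of the comparison, 0, 0 and 0 with the leukocyte level as a covariate, and 19, 18 and 16 when the covariate was the transcript-length index. Median-of-ratios factors gave 6 for 0 h on both days, and the log2 FPKM table gave 0 for 0 h on day 14. Skeletal muscle, keratinocyte and adipocyte levels as covariates gave 0 for both 0 h comparisons. With 4 libraries left out whose transcript-length index was extreme, an alternative chosen after seeing the data, the 0 h counts were 0 for both days and 1 for day 14. The cause of these changes was not tested. The shares of all genes called under these settings are not given here, so the counts are not results about the members. Leaving out 1 tumour at a time gave 0 to 14 members for day 14 over all hours, 0 to 14 for 0 h on both days and 0 to 10 for 0 h on day 14, 0 to 2 for vehicle day 14 against day 1 and 0 to 4 for vehicle day 14 against day 7. No call of a member or pathway gene changed direction under these alternatives. The 3 vehicle tumours a day and the unknown read depth limit every comparison.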
